A study of Sus scrofa with 12 samples.

Results

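The antioxidant enzyme genes are 37 genes chosen by symbol from a list of enzymes that remove reactive oxygen species or repair oxidized proteins, with the regulators NFE2L2 and KEAP1. All 37 were found among the 20674 genes of the table and all 37 had enough counts to be tested, among 15351 genes tested. The list holds 3 superoxide dismutases, catalase, 6 glutathione peroxidases, 6 peroxiredoxins, 6 genes of the thioredoxin system, 4 genes of glutathione synthesis and reduction, 2 heme oxygenases with the quinone reductase NQO1, 3 methionine sulfoxide reductases, 3 glutaredoxins and the 2 regulators.

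RNA was measured in endometrium, the inner lining of the uterus, of Landrace × Yorkshire sows of like parity that had been fed 1 of 4 gestation diets for 114 days. L − N was the low-fiber (LF) diet with 3.73% crude fiber, and L + N was the same diet with 0.05% N-carbamylglutamate (NCG), an activator of arginine synthesis. H − N was the high-fiber (HF) diet with 7.46% crude fiber, in which soybean bran and beet pulp took the place of part of the corn, and H + N was that diet with 0.05% NCG. Each group had 3 libraries, and 100 sows were fed per group. Each library is taken here as 1 sow, which the sources used here do not state. No source states that replicate numbers link sows of different groups.

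Superoxide dismutases turn superoxide into hydrogen peroxide, and catalase, glutathione peroxidases and peroxiredoxins turn peroxides into water or alcohols. Thioredoxin, glutathione and glutaredoxins supply the electrons for this, and are themselves reduced with NADPH. NRF2, the protein of NFE2L2, switches on many of these genes when KEAP1, which marks it for degradation, is oxidized. In the uterus during gestation these enzymes limit oxidation of lipids and proteins in a tissue with high blood flow.

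Total counts ran from 14369781 to 19309724 per library, and the biological coefficient of variation was 0.269. Markers of epithelium, stroma, smooth muscle, endothelium and the glands were detected, and no listed marker in the table was at 0 in all libraries. Markers of stroma summed to 27199 to 62274 CPM (read counts scaled to library size) and those of epithelium to 1092 to 2497 CPM, so the main layers of the labelled tissue were present. Replicate 1 of L − N stood apart by smooth muscle markers, with a sum of 5911 CPM against 1029 to 2309 CPM in the other 11 libraries. Replicate 3 of H − N had the highest sum of neutrophil markers, 173 CPM against 4.94 to 101 CPM elsewhere. It also had the highest sums of epithelial, ciliated epithelial and stromal markers, 2497, 345 and 62274 CPM. COL3A1 alone gave 30248 CPM of that stromal sum. The stroma markers VIM and THY1, with 862 and 154 CPM, were lowest there among the 12 libraries. In bulk tissue, fewer cells of a type and less RNA per cell cannot be told apart.

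Most of the enzymes were expressed at a high level. On the FPKM scale, which divides counts by gene length and library size, GPX1 led with a mean of 258 FPKM and a range of 102 to 707 FPKM over the 12 libraries. GPX1 encodes the main cytosolic glutathione peroxidase, and its range overlapped those of the next genes in the order. PRDX2 and PRDX1, cytosolic peroxiredoxins, followed with means of 155 and 136 FPKM. GPX4, which reduces peroxides of membrane lipids, had a mean of 109 FPKM, PRDX3, the mitochondrial peroxiredoxin, 99.4 FPKM, CAT 91.2 FPKM and SOD1, the cytosolic copper and zinc superoxide dismutase, 88.8 FPKM. Each of these 7 genes was above at least 96.2% of all genes tested. PRDX4, TXN, PRDX5, PRDX6, SOD2, TXNRD1 and GPX8 had means between 37.6 and 68.7 FPKM. At the other end of the order were MSRA with 1.86 FPKM, GPX2 with 2.57 FPKM and GLRX2 with 3.61 FPKM, and the ranges of GPX2 and both of its neighbours overlapped. GPX2, the glutathione peroxidase of gut epithelium, had a mean count of 34.2, and it lies wholly within CHURC1 on the opposite strand, whose mean count was 2177.

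**Figure D1:**
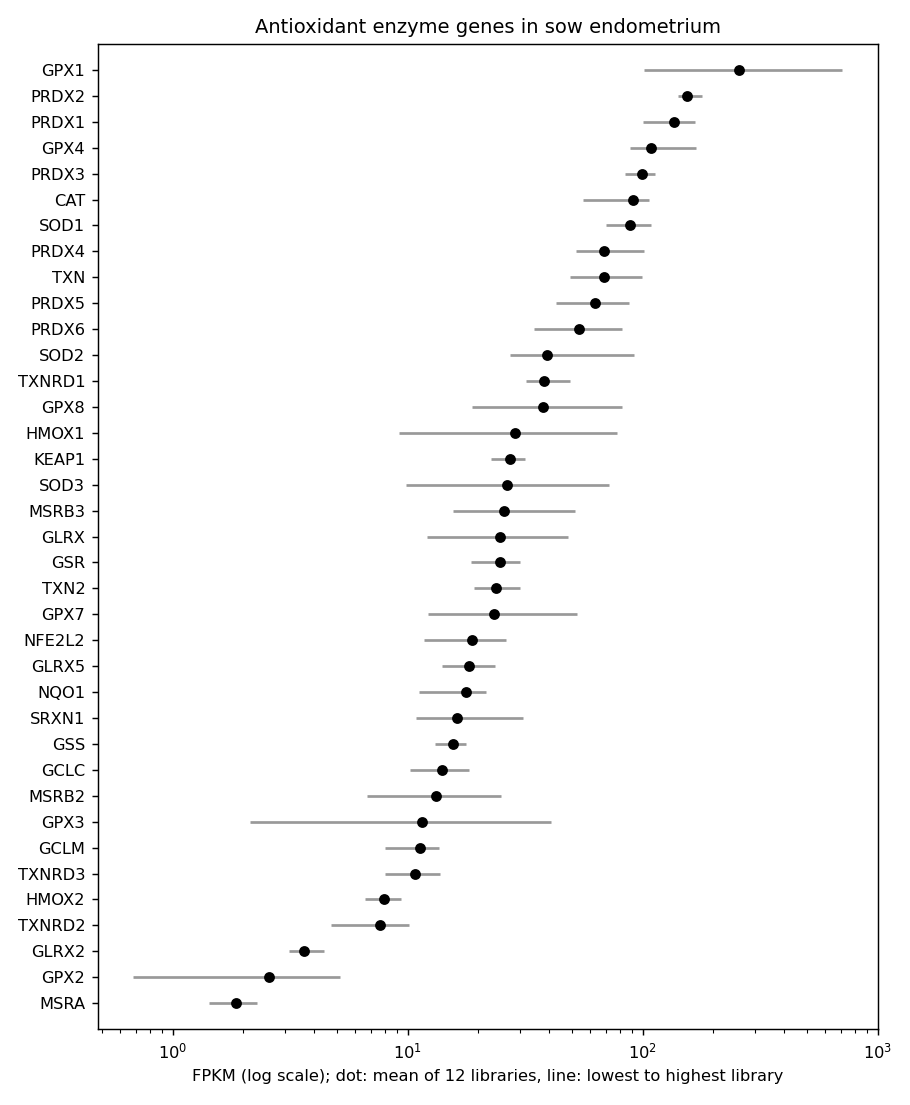
Level of each of the 37 genes in FPKM on a log scale, with the mean of 12 libraries as a dot and the lowest to highest library as a line. GPX1 was highest with a mean of 258 FPKM and MSRA lowest with 1.86 FPKM, and GPX3 and HMOX1 had long lines while PRDX2 and PRDX3 had short ones.

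The genes differed in how far their level moved over the 12 libraries. GPX3 spanned 4.21 on the log2 CPM scale, HMOX1 3.09, GPX1 2.88, SOD3 2.81 and GPX2 2.79. PRDX3 spanned 0.37 and PRDX2 0.39. GPX3 and HMOX1 were highest in L − N libraries, whereas GPX1 was highest in 1 H − N library.

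The effect of each diet was taken against L − N, which asks what added fiber, NCG or both changed. In L + N, 7 of the 37 genes fell and none rose, where 9.6% of all genes tested passed edgeR's threshold and 3.63% fell. The 7 were SOD1, SOD3, GPX3, GPX4, PRDX5, SRXN1 and MSRB3. In H − N, 5 of the 37 fell and none rose (GPX3, PRDX5, SRXN1, HMOX1 and MSRB3), where 5.27% of all genes passed and 3.71% fell. In H + N, 5 of the 37 fell and none rose (SOD3, GPX3, PRDX5, SRXN1 and HMOX1), where 7.97% of all genes passed and 3.66% fell. The 3 comparisons share the L − N libraries, so their lists are not independent of each other. GPX3, PRDX5 and SRXN1 fell in each of the 3.

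Markers of cell types moved in the same comparisons. In L + N, 2 of 7 smooth muscle markers (ACTA2 and TAGLN), 2 of 7 endothelial markers (PECAM1 and CDH5) and 1 of 9 macrophage markers (CD163) fell, and all 6 cell division markers rose. The stroma marker VIM and the red blood cell marker AHSP also fell there. The epithelial marker GRHL2, the ciliated marker CCDC39 and the stroma marker HOXA10 rose. In H − N, 6 of 9 macrophage markers and 2 of 10 stroma markers (VIM and THY1) fell. There, 2 of 11 epithelial markers (CDH1 and GRHL2) and 1 of 6 cell division markers rose. In H + N, 3 of 9 macrophage markers and 1 of 7 endothelial markers fell, and 5 of 6 cell division markers rose. The stroma marker VIM fell there too, while HOXA10 and CCDC39 rose. Summed cell division markers were 52.9 to 154 CPM in L − N, 290 to 399 CPM in L + N, 166 to 214 CPM in H − N and 270 to 366 CPM in H + N. Their part in the values of the 37 genes was not tested.

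Over all 37 genes the median log2 fold change was −0.36 for L + N, −0.17 for H − N and −0.22 for H + N, beside −0.02, 0.03 and 0.02 over all genes. The estimate was lower than in L − N for 31 genes with L + N, 25 with H − N and 27 with H + N, where 52.3%, 46.5% and 48.3% of all genes had a lower estimate. At an unadjusted p under 0.05, 17 of the 37 passed for L + N, 11 for H − N and 16 for H + N, where 27.8%, 24.4% and 27.5% of all genes did. Each library of the diet was below each of L − N for 17, 10 and 15 genes, where 17.2%, 12.7% and 12.7% of all genes showed this. The reverse held for NFE2L2 in L + N and GCLM in H + N, as for 18% and 15.2% of all genes. DESeq2 on all 12 libraries called 15, 7 and 10 of the 37, again all lower, where it called 14.6%, 11.2% and 14.4% of all genes. With an absolute log2 fold change above 1 required as well, 2, 3 and 4 of the 37 remained for edgeR, where 3.99%, 2.91% and 3.58% of all genes passed.

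These counts depended on single libraries. Where no share over all genes stands beside a count below, the count is not read as particular to the 37. In H + N against L − N none of the 37 passed once replicate 3 of L − N or replicate 1 of H + N was dropped, and the count over all genes tested in those fits then fell to 4 and 1. Dropping replicate 3 of H + N left 1 of the 37, dropping replicate 2 of L − N left 2, and dropping replicate 1 of L − N gave 8, where 11.7% of all genes passed. Dropping replicate 3 of H − N also gave 8, where 9.2% passed. For H − N against L − N, 0 remained after dropping replicate 3 of L − N or replicate 1 of H − N. There, 1 remained after dropping replicate 2 of L − N or replicate 3 of H − N, 2 after replicate 2 of H − N, and 3 after replicate 3 of L + N or replicate 1 of H + N. For L + N against L − N, 0 remained after dropping replicates 2 or 3 of L + N, 1 after replicate 1 of L + N, 2 after replicate 3 of L − N and 3 after replicate 2 of L − N. With the pair of groups fitted alone, edgeR called 0 of 37 for H + N and for H − N, and 5 for L + N. No gene that was called changed direction in any of these fits.

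**Figure D2:**
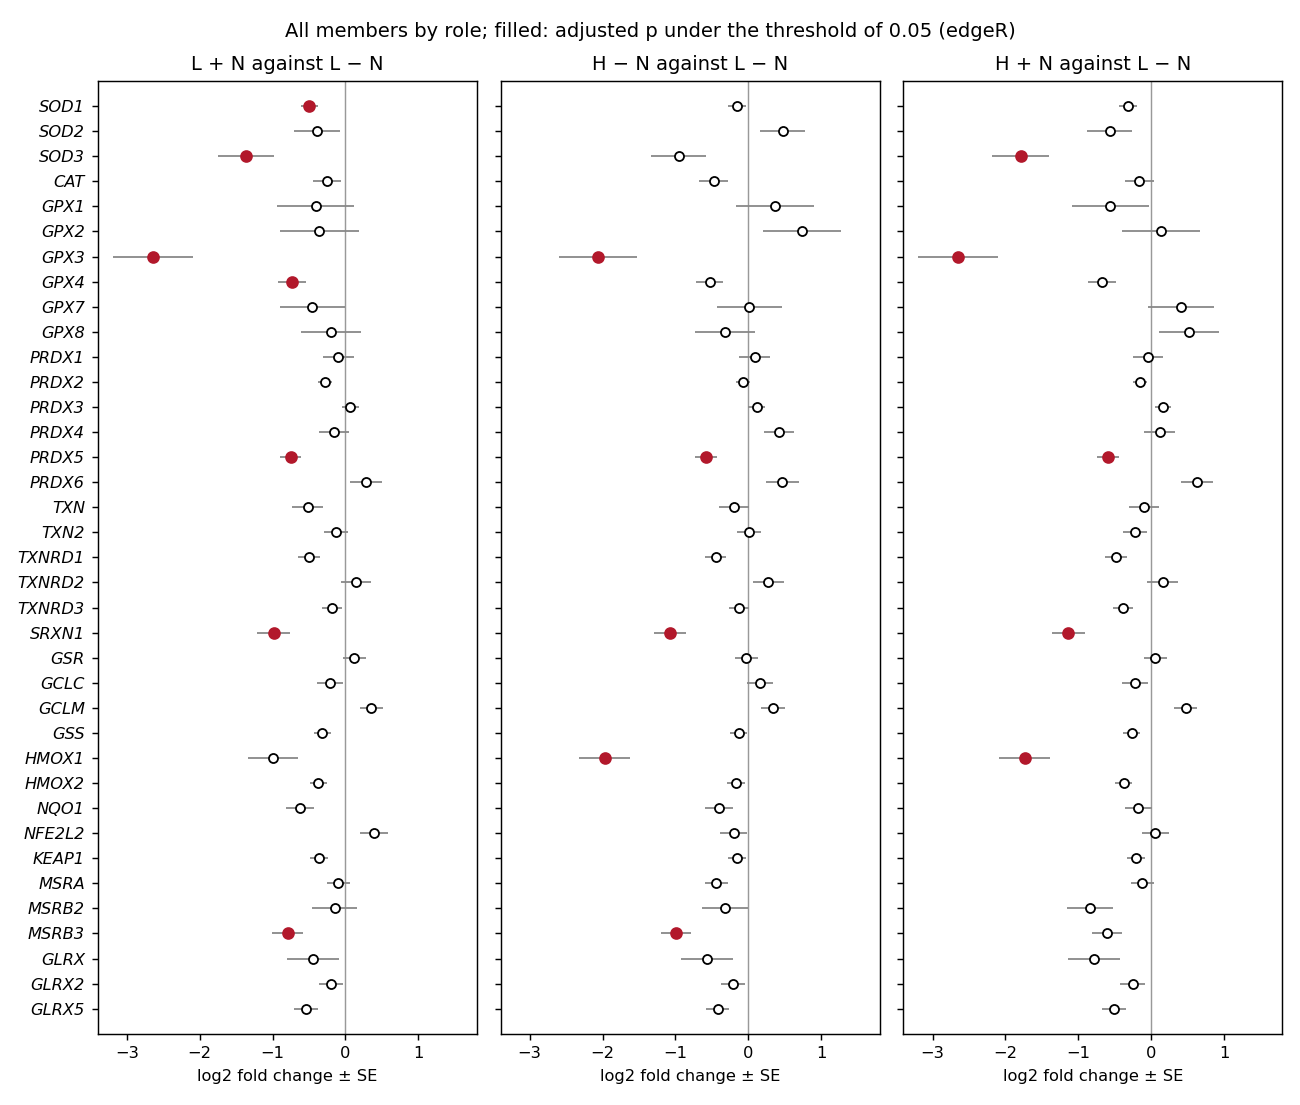
Log2 fold change ± SE of all 37 genes against L − N, ordered by role, for L + N, H − N and H + N (n = 3 per group, filled points past edgeR's adjusted p threshold of 0.05). Filled points number 7, 5 and 5 and all lie left of 0, and GPX3 lies farthest left in each panel.

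Fiber and NCG were also taken across both levels of the other factor. None of the 37 passed in HF against LF, where 0.0521% of all genes passed, while 8 passed at an unadjusted p under 0.05 (19.5% of all genes) and DESeq2 called 2, SRXN1 and HMOX1, beside 6.03% of all genes. Dropping replicate 1 of L − N gave 3 calls for HF against LF, where 6.99% of all genes passed, and dropping replicate 2 of H + N gave 2, where 0.735% passed. With NCG, SOD1, SOD3, GPX3 and PRDX5 fell and none of the 37 rose, where 7.27% of all genes passed and 1.6% fell. On the low-fiber diet the changes of these 4 genes with NCG were −0.49, −1.36, −2.65 and −0.75, in that order. On the high-fiber diet (H + N against H − N) they were −0.16, −0.83, −0.58 and −0.02, and none passed. At an unadjusted p under 0.05, 16 passed with NCG (23.6% of all genes), and DESeq2 called 9 (11% of all genes). With an absolute log2 fold change above 1 as well, 2 of the 37 remained, where 1.8% of all genes passed. The count of 4 with NCG fell to 0 when replicate 1 of H + N was dropped, and to 1 when any library of L + N or replicate 1 of H − N was dropped. It fell to 2 when replicates 2 or 3 of L − N, of H − N or of H + N were dropped. The share over all genes in those fits is not given here, so these counts are not read as particular to the 37.

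The interaction asks whether NCG acted differently on the 2 fiber levels. None of the 37 passed, where 0% of all genes passed, although 7 passed at an unadjusted p under 0.05 (12.8% of all genes) and DESeq2 called 1, MSRB3 (1.56% of all genes). Dropping replicate 1 of L − N gave 2 calls, GPX4 and SRXN1, where 2.81% of all genes passed. H + N against H − N and H + N against L + N gave 0 calls among the 37 and 0% among all genes, with 1 of the 37 at an unadjusted p under 0.05 in each (8.67% and 4.68% of all genes) and none by DESeq2. Without overlap, 6 genes were lower and 1 higher in H + N than in H − N, where 5.13% of all genes were lower and 7.82% higher. The 6 were SOD1, SOD2, TXN2, TXNRD3, GSS and HMOX2, and the 1 was MSRA. Against L + N, NFE2L2 and MSRB2 were lower and PRDX2 higher without overlap, where 5.09% of all genes were lower and 5.86% higher.

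Of the superoxide dismutases, SOD3, the form secreted into the extracellular matrix, fell with NCG (Sscrofa11.1, chr8:18796633-18802156, plus strand). Its level was 123, 57.4 and 66.9 CPM in L − N, 40.0, 25.3 and 31.1 CPM in L + N, 34.3, 26.5 and 66.5 CPM in H − N, and 21.7, 32.3 and 17.4 CPM in H + N. All libraries of L + N and H + N were below all of L − N, while replicate 3 of H − N reached the L − N range. The log2 fold change was −1.79 ± 0.390 (SE) in H + N (edgeR adjusted p = 0.0264) and −1.36 ± 0.384 in L + N (edgeR adjusted p = 0.0486). In H − N it was −0.96 (edgeR adjusted p = 0.152), and for NCG over both fiber levels −1.09 ± 0.271 (edgeR adjusted p = 0.035), a call that held in 3 of 12 fits with a library left out. SOD3 and the smooth muscle markers were both highest in replicate 1 of L − N. Without that library the change was −1.38 in H + N and passed (edgeR adjusted p = 0.0376), and −0.95 in L + N and did not (edgeR adjusted p = 0.109). In L + N the call held in 4 of 12 fits, and was lost without any library of L − N or L + N, replicate 1 of H − N or replicate 1 of H + N, with changes of −1.56 to −0.95. The call in H + N was also lost without replicate 3 of L − N, replicate 1 of H + N or replicate 3 of H + N, with changes of −1.92, −1.75 and −1.61.

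SOD1 fell in L + N, from 69.1, 72.5 and 57.5 CPM in L − N to 46.6, 51.9 and 42.8 CPM (chr13:195326573-195335273, plus strand). Its levels were 55.8, 64.8 and 58.3 CPM in H − N and 53.7, 51.7 and 54.1 CPM in H + N. The 6 libraries with NCG were all below the 6 without, a pattern that 0.769% of all genes tested showed. The change was −0.49 ± 0.118 in L + N (edgeR adjusted p = 0.0267), −0.33 ± 0.0836 for NCG over both fiber levels (edgeR adjusted p = 0.0376), and −0.32 in H + N (edgeR adjusted p = 0.11). The call in L + N held in 8 of 12 fits that left out a library, and the call for NCG in 3 of 12. The gene shares 96 bases with SCAF4 on the opposite strand.

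SOD2, the manganese enzyme of mitochondria, showed the same separation by NCG. It measured 58.4, 75.4 and 73.1 CPM in L − N and 62.8, 61.2 and 163 CPM in H − N, against 53.6, 57.8 and 46.6 CPM in L + N and 47.4, 44.5 and 47.4 CPM in H + N. The change for NCG was −0.72 ± 0.221 and did not pass (edgeR adjusted p = 0.0763). Replicate 3 of H − N was far above the rest, and it also had the highest neutrophil markers and the highest GPX1. The same library was highest in summed epithelial, ciliated epithelial and stromal markers, but lowest in the stroma markers VIM and THY1. Replicate 1 of L + N, second in neutrophil markers with 101 CPM, had 53.6 CPM of SOD2. The difference between H + N and H − N was −1.04 ± 0.314 with all libraries (edgeR adjusted p = 0.474) and −0.42 without replicate 3 of H − N. The part of neutrophils, epithelium or stroma in these values was not tested.

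Catalase, which removes hydrogen peroxide in peroxisomes, passed in no comparison by edgeR or DESeq2. Its mean was 260 ± 18.6 CPM (SD, n = 3) in L − N, 217 ± 10.1 CPM in L + N, 187 ± 58.9 CPM in H − N and 232 ± 35.4 CPM in H + N. The largest of its changes against L − N was −0.48 in H − N (edgeR adjusted p = 0.159).

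Among the glutathione peroxidases, GPX3, the secreted plasma form, had the largest change of the 37 genes against L − N (chr16:71980467-71989011, minus strand). Its level was 64.4, 47.0 and 29.8 CPM in L − N, 7.86, 7.92 and 6.74 CPM in L + N, 8.65, 16.0 and 9.17 CPM in H − N, and 3.36, 15.5 and 3.49 CPM in H + N. The lowest L − N library was above every other library, and replicate 2 stood above the other 2 in both H − N and H + N. The log2 fold change was −2.65 ± 0.549 in L + N (edgeR adjusted p = 0.0167), −2.06 ± 0.536 in H − N (edgeR adjusted p = 0.0495) and −2.65 ± 0.549 in H + N (edgeR adjusted p = 0.0232), a level 6.26-fold lower in H + N. For NCG over both fiber levels it was −1.62 ± 0.379 (edgeR adjusted p = 0.028). Between H − N and H + N it was −0.58 (edgeR adjusted p = 0.785).

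The size of the GPX3 change varied with the library left out, from −3.79 without replicate 2 of H + N to −2.31 without replicate 3 of H + N in H + N, and the call held in 9 of 12 fits. It was lost there without replicate 3 of L − N, replicate 1 of H + N or replicate 3 of H + N. In L + N the change ran from −2.89 to −2.35 and the call held in 9 of 12 fits, being lost without any 1 of the L + N libraries. In H − N it ran from −2.40 to −1.77 and held in 2 of 12. Markers of red blood cells summed to 757, 63.8 and 517 CPM in L − N. In L + N and H − N they summed to 28.1 to 83.7 CPM and 33.0 to 56.9 CPM, and in H + N to 29.5, 295 and 214 CPM. The highest library of both GPX3 and these markers was replicate 1 of L − N, and within H + N it was replicate 2. Other libraries differed, with 63.8 CPM of markers and 47.0 CPM of GPX3 in replicate 2 of L − N. Replicate 3 of H + N had 214 CPM of markers and 3.49 CPM of GPX3. The sum was mostly HBB, with 733 of the 757 CPM in replicate 1 of L − N. Their part in the GPX3 values was not tested.

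GPX4 fell in L + N (chr2:77321568-77323931, minus strand). It measured 88.5, 159 and 155 CPM in L − N, 76.5, 76.5 and 88.7 CPM in L + N, 92.5, 97.9 and 87.9 CPM in H − N and 80.0, 78.0 and 93.2 CPM in H + N. Replicate 1 of L − N lay within the range of the other groups, and replicates 2 and 3 of L − N were above every other library. The change was −0.74 ± 0.19 in L + N (edgeR adjusted p = 0.0356) and −0.68 in H + N (edgeR adjusted p = 0.0514), and the difference between these was not called in H + N against L + N. In L + N it was −0.59 without replicate 2 of L − N and −0.62 without replicate 3 of L − N, neither of which passed. The call was also lost without any library of L + N, and held in 7 of 12 fits.

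GPX1 had no call. Its level was 224, 176 and 271 CPM in L − N, 227, 146 and 133 CPM in L + N, 187, 81.1 and 598 CPM in H − N, and 151, 135 and 168 CPM in H + N. H − N thus held both the lowest and the highest library, and the highest was again replicate 3. GPX7 and GPX8, peroxidases of the endoplasmic reticulum, had means of 40.4 and 46.8 CPM in L − N and 53.7 and 67.1 CPM in H + N, with replicate 3 of H + N at 95 and 107 CPM. GPX2 measured 1.53, 1.5 and 2.42 CPM in L − N, 1.6, 2.1 and 0.523 CPM in L + N, 3.21, 1.53 and 4.35 CPM in H − N and 1.25, 2.82 and 1.90 CPM in H + N. Its groups overlapped in every comparison with L − N.

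**Figure D3:**
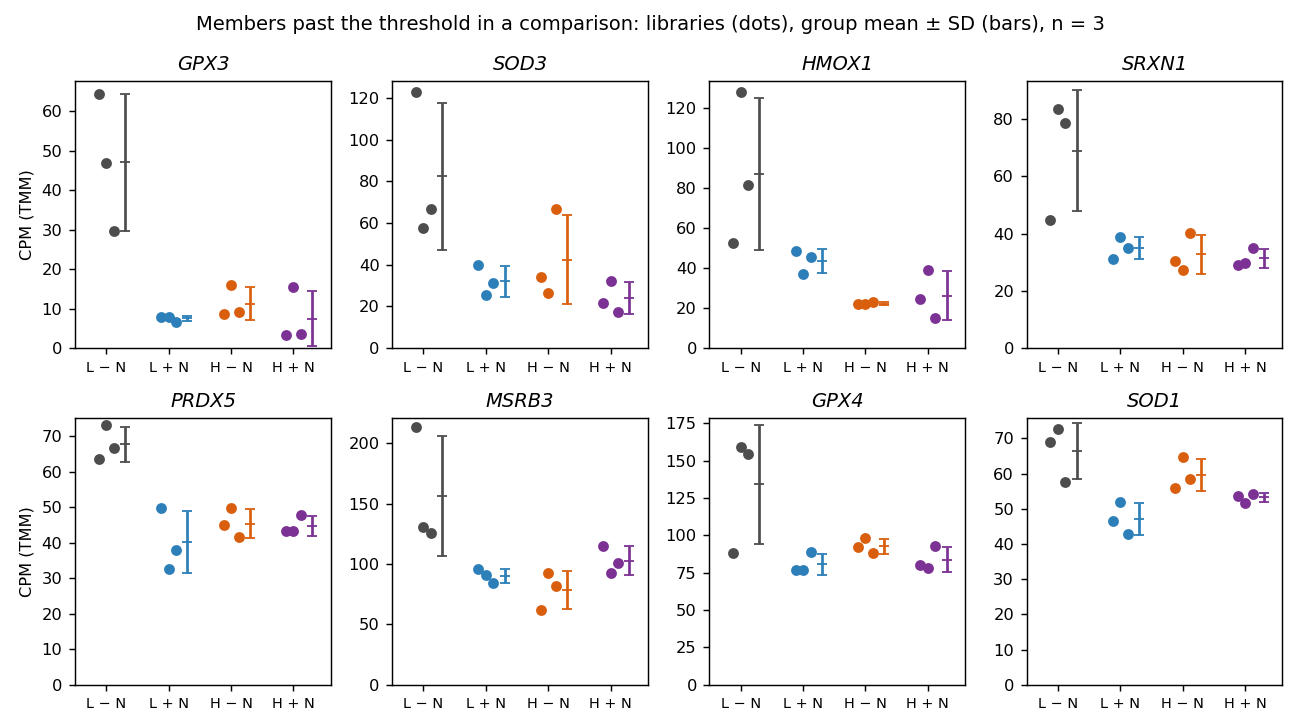
CPM of the 8 genes that passed in at least 1 comparison, each library as a dot with the group mean ± SD beside it (n = 3 per group, axes from 0). GPX3, HMOX1, SRXN1, PRDX5 and MSRB3 were lower in every library of the 3 other groups than in any L − N library, while SOD3, GPX4 and SOD1 overlapped in at least 1 group.

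PRDX5 was the peroxiredoxin that fell, in all 3 diets (chr2:7798672-7801955, minus strand). PRDX5 works in mitochondria, peroxisomes and the cytosol. Its level was 63.5, 73.1 and 66.7 CPM in L − N, 49.8, 32.6 and 38.1 CPM in L + N, 45.0, 49.7 and 41.6 CPM in H − N, and 43.2, 43.2 and 47.9 CPM in H + N. All 3 L − N libraries were above the other 9. The change was −0.75 ± 0.15 in L + N (edgeR adjusted p = 0.0145), −0.58 ± 0.15 in H − N (edgeR adjusted p = 0.0495), −0.60 ± 0.15 in H + N (edgeR adjusted p = 0.0372) and −0.39 ± 0.106 for NCG (edgeR adjusted p = 0.0499). These calls held in 9, 3, 7 and 1 of 12 fits with a library left out, in that order, and in L + N the call was lost without replicate 3 of L − N, replicate 2 of L + N or replicate 3 of L + N. Between H − N and H + N the change of PRDX5 was −0.02 (edgeR adjusted p = 0.981).

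The other 5 peroxiredoxins passed in no comparison by edgeR, and DESeq2 called PRDX2 lower in L + N and with NCG. PRDX2 measured 158, 172 and 156 CPM in L − N, 133, 135 and 131 CPM in L + N, 165, 152 and 143 CPM in H − N and 139, 141 and 155 CPM in H + N. The L + N and H + N libraries were below all of L − N, and the change in L + N was −0.28 ± 0.0959 (edgeR adjusted p = 0.0836). PRDX1 measured 180, 306 and 252 CPM in L − N, 215, 222 and 252 CPM in L + N, 201, 298 and 287 CPM in H − N and 206, 220 and 289 CPM in H + N, with all groups overlapping. PRDX3 ranged from 132 to 171 CPM over all libraries. PRDX4, of the endoplasmic reticulum, had a mean of 72.6 CPM in L − N and 97.1 CPM in H − N (log2 fold change 0.42, edgeR adjusted p = 0.243). PRDX6, which also repairs oxidized phospholipids, had a higher estimate in all 3 diets, with 69.4 ± 16.0 CPM in L − N and 108 ± 31.9 CPM in H + N (log2 fold change 0.63, edgeR adjusted p = 0.0929). Without replicate 2 of H + N PRDX6 passed in H + N, as the only peroxiredoxin called higher in any fit.

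In the thioredoxin system, SRXN1 fell in all 3 diets (chr17:34582377-34589308, plus strand). Its protein, sulfiredoxin, restores peroxiredoxins that hydrogen peroxide has overoxidized. It measured 44.8, 83.5 and 78.8 CPM in L − N, 31.0, 38.8 and 34.9 CPM in L + N, 30.5, 27.5 and 40.3 CPM in H − N and 29.2, 29.8 and 35.1 CPM in H + N. The lowest L − N library, replicate 1, was just above the highest of the other 9. The change was −0.98 ± 0.225 in L + N (edgeR adjusted p = 0.0223), −1.07 ± 0.225 in H − N (edgeR adjusted p = 0.0284) and −1.14 ± 0.226 in H + N (edgeR adjusted p = 0.0218). Without replicate 1 of L − N these were −1.22, −1.31 and −1.37, and without replicate 2 of L − N they were −0.82, −0.92 and −0.98 and did not pass. They were also lost without replicate 3 of L − N, with changes of −0.88, −0.97 and −1.03, and held in 7, 8 and 9 of 12 fits.

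TXNRD1, the cytosolic thioredoxin reductase, passed in no comparison by edgeR. Its mean was 168 ± 19.9 CPM in L − N, 119 ± 10.3 CPM in L + N, 123 ± 19.8 CPM in H − N and 120 ± 15.2 CPM in H + N, with no overlap between L − N and any of the 3 diets. The change was −0.50 in L + N (edgeR adjusted p = 0.0544), −0.45 in H − N (edgeR adjusted p = 0.0954) and −0.48 in H + N (edgeR adjusted p = 0.0644). DESeq2 called TXNRD1 in all 3. TXN, thioredoxin itself, had a mean of 59.6 CPM in L − N and 41.5 CPM in L + N (log2 fold change −0.52, edgeR adjusted p = 0.132). TXN2 and TXNRD2, the mitochondrial pair, had changes between −0.22 and 0.28. TXNRD3, a reductase best known from testis, had its largest change in H + N, −0.39 (edgeR adjusted p = 0.0999).

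The genes that make and reduce glutathione passed in no comparison by edgeR, and DESeq2 called GSS lower in L + N. GCLC and GCLM encode the catalytic and the modifier subunit of glutamate-cysteine ligase, and their estimates had opposite signs in L + N and H + N. GCLM had a mean of 46.9 ± 6.27 CPM in L − N, 59.9 ± 7.31 CPM in L + N, 59.2 ± 12.3 CPM in H − N and 65.0 ± 4.32 CPM in H + N. In H + N its change was 0.47 ± 0.16 (edgeR adjusted p = 0.085), with all 3 libraries above all of L − N, and it passed without replicate 3 of H − N. GCLC changed by −0.22 in H + N (edgeR adjusted p = 0.463). GSS, glutathione synthetase, was −0.32 in L + N (edgeR adjusted p = 0.108) with no overlap between the groups. GSR, glutathione reductase, lay between −0.03 and 0.12 against L − N.

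HMOX1, the inducible heme oxygenase that breaks heme down to biliverdin, iron and carbon monoxide, fell in both high-fiber groups (unplaced scaffold of Sscrofa11.1, bases 1954828 to 1963836, plus strand). It measured 52.5, 128 and 81.6 CPM in L − N, 48.8, 37.1 and 45.4 CPM in L + N, 21.9, 22.1 and 23.0 CPM in H − N, and 24.6, 39.3 and 14.9 CPM in H + N. The 3 H − N libraries lay close together and below all libraries of both low-fiber groups. The change was −1.97 ± 0.353 in H − N (edgeR adjusted p = 0.0196), −1.73 ± 0.35 in H + N (edgeR adjusted p = 0.0225) and −0.997 ± 0.342 in L + N (edgeR adjusted p = 0.0879). For HF against LF it was −1.35 ± 0.246, the smallest p of the 37 in that comparison (edgeR adjusted p = 0.0576).

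HMOX1 was set beside the markers of macrophages, cells that take up red blood cells. Their sum was 1361, 3434 and 3541 CPM in L − N, 1632, 1554 and 1152 CPM in L + N, 949, 1016 and 700 CPM in H − N, and 1373, 1390 and 1108 CPM in H + N. Of the 9 markers, 6 fell in H − N, 3 in H + N and 1 in L + N, and none was at 0 in all libraries. Replicates 2 and 3 of L − N, with the highest marker sums, also had the highest HMOX1. Replicate 1 of L − N and replicate 1 of H + N had like marker sums, 1361 and 1373 CPM. Their HMOX1 was 52.5 and 24.6 CPM. Replicates 1 and 2 of L + N had higher sums than replicate 1 of L − N, 1632 and 1554 CPM. Their HMOX1 was lower, 48.8 and 37.1 CPM. Without replicate 2 of L − N the change of HMOX1 was −1.59 in H − N and −1.35 in H + N, and without replicate 3 of L − N it was −2.02 and −1.78, and none of these 4 passed. The call held in 7 of 12 fits for H − N and in 8 of 12 for H + N. SRXN1 and GPX4 were likewise lowest in replicate 1 of L − N among the L − N libraries, as the macrophage markers were. The part of macrophages in the values of these 3 genes was not tested.

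HMOX2, the constitutive heme oxygenase, had means of 64.3 ± 4.36 CPM in L − N, 49.6 ± 6.97 CPM in L + N, 57.1 ± 2.50 CPM in H − N and 49.4 ± 3.45 CPM in H + N. Its change for NCG was −0.29 (edgeR adjusted p = 0.0594). The gene shares 10223 bases of its locus with CDIP1 on the opposite strand. NQO1, which reduces quinones, measured 32.7, 38.7 and 38.4 CPM in L − N, 27.4, 18.5 and 25.6 CPM in L + N, 31.7, 29.0 and 22.4 CPM in H − N and 32.9, 26.7 and 37.6 CPM in H + N. Its estimate was −0.62 in L + N (edgeR adjusted p = 0.0627). NQO1 had the smallest p of the 37 in H + N against L + N, with a change of 0.44 ± 0.19 that did not pass (edgeR adjusted p = 0.91).

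The regulators passed in no comparison by edgeR, DESeq2 called KEAP1 lower in L + N, and their estimates in L + N had opposite signs. NFE2L2 measured 148, 191 and 200 CPM in L − N, 237, 257 and 214 CPM in L + N, 114, 165 and 190 CPM in H − N and 210, 188 and 162 CPM in H + N. Its 3 L + N libraries were above all L − N libraries, with a change of 0.39 ± 0.188 (edgeR adjusted p = 0.2), beside 0.06 in H + N and −0.20 in H − N. It shares 1256 bases with HNRNPA3, which had a mean count of 8505 against 3129 for NFE2L2. KEAP1 measured 85.0, 105 and 107 CPM in L − N, 79.1, 69.8 and 81.6 CPM in L + N, 86.9, 81.8 and 97.5 CPM in H − N and 78.4, 84.9 and 93.7 CPM in H + N. In L + N it was −0.37 ± 0.125 (edgeR adjusted p = 0.0862), again with no overlap.

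The 9 known NRF2 targets of the list, HMOX1, SRXN1, TXNRD1, NQO1, TXN, PRDX1, GCLC, GSR and GCLM, did not share 1 direction. HMOX1, SRXN1, TXNRD1, NQO1 and TXN had lower estimates in all 3 diets, GCLM had higher ones, and PRDX1, GCLC and GSR had both.

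**Figure D4:**
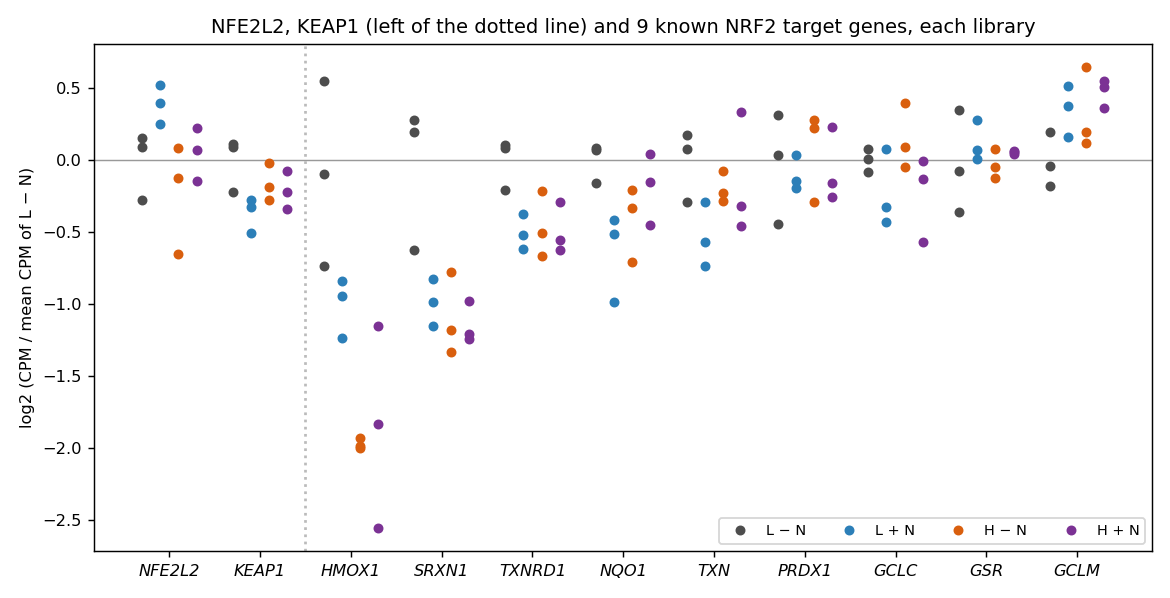
Level of NFE2L2, KEAP1 and 9 known NRF2 target genes in each library, as log2 of CPM over the mean CPM of L − N. HMOX1 and SRXN1 lie well below 0 in the 9 libraries of L + N, H − N and H + N, and GCLM lies above 0 in those libraries.

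Among the methionine sulfoxide reductases, which repair oxidized methionine in proteins, MSRB3 of the endoplasmic reticulum and mitochondria fell in H − N and L + N (chr5:29695824-29863601, plus strand). It measured 214, 130 and 126 CPM in L − N, 95.8, 91.1 and 84.2 CPM in L + N, 61.9, 92.9 and 81.8 CPM in H − N and 115, 92.3 and 101 CPM in H + N. All 9 libraries of the other groups were below L − N, and replicate 1 of L − N, the library with high smooth muscle markers, was highest. The change was −0.99 ± 0.21 in H − N (edgeR adjusted p = 0.0292), −0.79 ± 0.209 in L + N (edgeR adjusted p = 0.0375) and −0.61 in H + N (edgeR adjusted p = 0.089). Without replicate 1 of L − N it was −0.70 in H − N and passed (edgeR adjusted p = 0.0193), and −0.50 in L + N and did not (edgeR adjusted p = 0.0667). In L + N the call held in 6 of 12 fits, and was also lost without replicate 3 of L − N, any library of L + N or replicate 1 of H + N. In H − N the call was also lost without replicate 3 of L − N, replicate 1 of H − N or replicate 3 of H − N. The part of smooth muscle in these values was not tested.

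**Figure D5:**
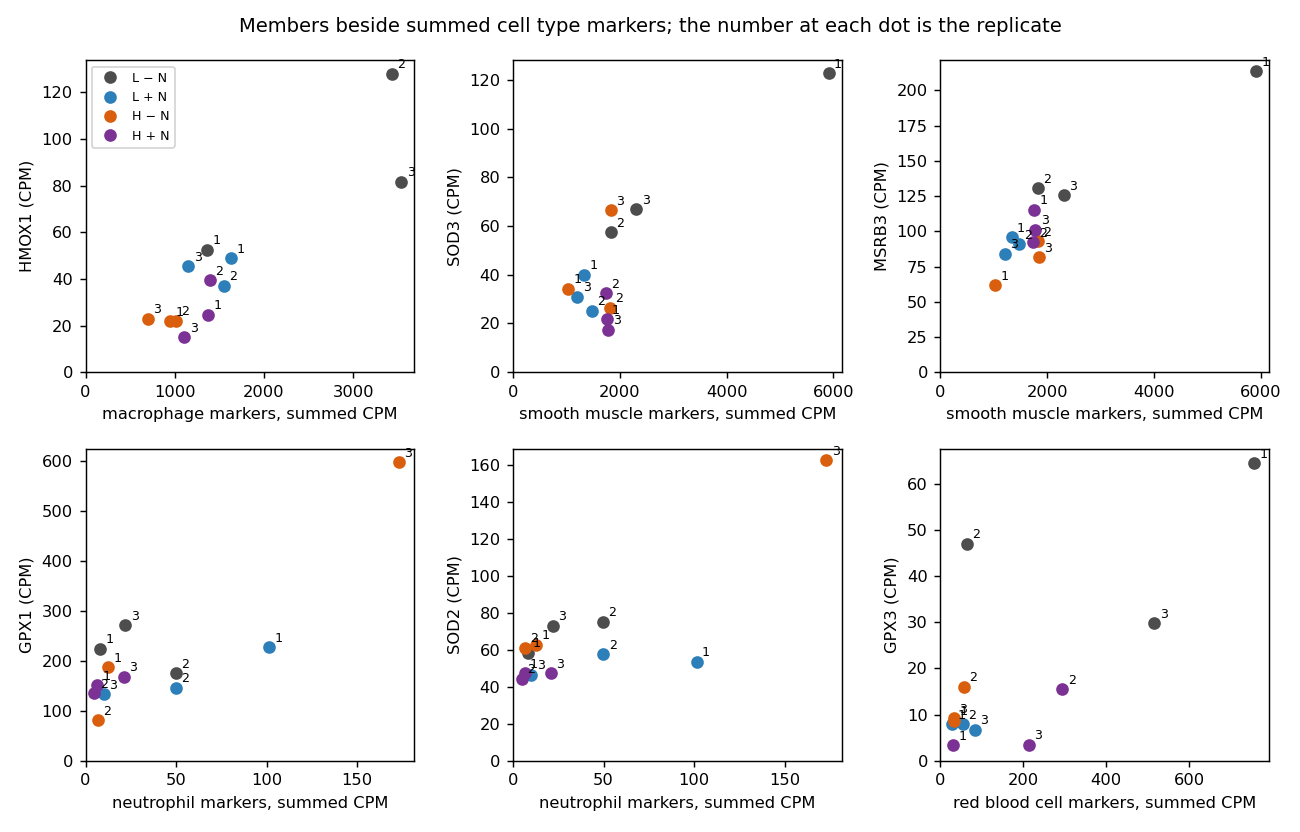
CPM of HMOX1, SOD3, MSRB3, GPX1, SOD2 and GPX3 against summed CPM of cell type markers, each library as a numbered dot. Replicates 2 and 3 of L − N are highest in macrophage markers and HMOX1, replicate 1 of L − N in smooth muscle markers, SOD3 and MSRB3, and replicate 3 of H − N in neutrophil markers, GPX1 and SOD2. Replicate 3 of H − N was also highest in summed epithelial and stromal markers, which are not plotted, but lowest in the stroma markers VIM and THY1.

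MSRB3 had the smallest p of the 37 for the interaction, with 1.18 ± 0.295 on the log2 scale (edgeR adjusted p = 0.255). NCG went with a lower level on the low-fiber diet, 157 ± 49.5 against 90.4 ± 5.81 CPM, and with a higher mean on the high-fiber diet, 78.8 ± 15.7 against 103 ± 11.6 CPM. MSRA measured 14.1, 17.6 and 20.4 CPM in L − N, 16.3, 16.0 and 16.3 CPM in L + N, 12.1, 13.8 and 12.6 CPM in H − N and 15.0, 16.6 and 16.2 CPM in H + N. The H − N libraries of MSRA were below all others, with a change of −0.44 against L − N (edgeR adjusted p = 0.12). MSRB2, a mitochondrial form, was 34.1 CPM in replicate 1 of L − N and 9.40 to 20.5 CPM in the other 11 libraries.

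The glutaredoxins, which undo the binding of glutathione to proteins, passed in no comparison by edgeR, and DESeq2 called GLRX5 lower in L + N and H + N. GLRX5, needed for iron-sulfur clusters in mitochondria, had a mean of 24.2 ± 1.56 CPM in L − N, 16.6 ± 2.76 CPM in L + N, 18.0 ± 2.76 CPM in H − N and 17.0 ± 0.931 CPM in H + N, with no overlap between L − N and the rest. Its change was −0.54 in L + N (edgeR adjusted p = 0.0579) and −0.51 in H + N (edgeR adjusted p = 0.0712). GLRX measured 57.4 ± 29.8 CPM in L − N and 33.2 ± 10.01 CPM in H + N. GLRX2 measured 13.3, 15.1 and 10.9 CPM in L − N, 10.05, 12.2 and 11.97 CPM in L + N, 10.7, 11.2 and 12.1 CPM in H − N and 11.2, 11.2 and 10.5 CPM in H + N, with all groups overlapping.

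Grouped by features that did not enter the list's rule, both secreted enzymes, SOD3 and GPX3, fell in L + N and H + N, and GPX3 in H − N. Of the 9 genes taken as known NRF2 targets, SRXN1 and HMOX1 fell in H − N and H + N and SRXN1 in L + N, and none rose. Of the 7 selenoproteins, GPX3 fell in each diet and GPX4 in L + N. Of the 8 enzymes listed as mitochondrial PRDX5 fell in each diet, and of the 4 listed under the endoplasmic reticulum MSRB3 fell in H − N and L + N. MSRB3, which also works in mitochondria, was counted only under the endoplasmic reticulum. Over all genes 3.63% fell with L + N, 3.71% with H − N and 3.66% with H + N, so 1 call in a group of 4 to 9 genes is not read as a result about the group.

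The wider redox network was described by 140 other genes, of which 130 were in the table and 126 were tested. Of these, 12 fell and 6 rose in L + N, 9 fell and 2 rose in H − N, 13 fell and 2 rose in H + N, and none passed in HF against LF. Over all genes 3.63% fell and 5.97% rose in L + N, 3.71% fell and 1.56% rose in H − N, and 3.66% fell and 4.31% rose in H + N. MAFF, a small MAF protein that pairs with NRF2, fell from 33.8 ± 7.06 CPM in L − N to 10.5 ± 1.35 CPM in L + N, 9.06 ± 1.69 CPM in H − N and 11.2 ± 2.34 CPM in H + N. Its edgeR adjusted p was 0.00818, 0.0118 and 0.0136. QSOX1, which forms disulfide bonds in secreted proteins, fell from 131 ± 14.0 CPM to 74.9 ± 5.61, 74.5 ± 1.83 and 67.7 ± 9.94 CPM in the same order. ATOX1, a copper chaperone that supplies the export route of copper, fell in L + N from 26.3 ± 2.30 to 15.2 ± 1.14 CPM (log2 fold change −0.79, edgeR adjusted p = 0.0174). SEPHS2, which makes the selenium donor for selenoproteins, fell in L + N by 0.48 on the log2 scale (edgeR adjusted p = 0.0202). SECISBP2L, of the same list, rose with NCG over both fiber levels by 0.59 (edgeR adjusted p = 0.014). In L + N that list had 1 rise and 2 falls among 24 genes tested.

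A few of these genes rose. GSTA1, a glutathione S-transferase that also takes part in steroid synthesis, rose from 0.746 ± 0.788 CPM in L − N to 6.47 ± 0.865 CPM in L + N, 5.41 ± 1.98 CPM in H − N and 5.73 ± 2.27 CPM in H + N. Its log2 fold change was 3.10, 2.84 and 2.93 (edgeR adjusted p = 0.0139, 0.0298 and 0.0232). The transferases were the list with rises in all 3 diets, 2 of 10 tested in each, GSTA1 and GSTCD, and 11 of the 19 listed were in the table. SLC25A40, a carrier that brings glutathione into mitochondria, rose in L + N from 28.2 ± 4.75 to 47.0 ± 2.55 CPM (log2 fold change 0.74, edgeR adjusted p = 0.0121). IDH1, which makes NADPH in the cytosol, fell in H + N from 154 ± 11.4 to 93.4 ± 1.78 CPM (log2 fold change −0.72, edgeR adjusted p = 0.0171), as the only 1 of 15 genes of NADPH supply to pass there.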

How the data were processed

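The groups of the RNA-seq libraries of endometrium, 3 libraries in each of 4 groups, were read from deposited titles, which do not name sows. The authors deposited, per gene and library, a read count (unnormalized) and an FPKM value. The submitters' processing notes name fastp 0.22.0, HISAT2 2.1.0, HTSeq 0.9.1 and Sscrofa11.1, and the paper describes strand-specific libraries. The strand setting of the counting is not given in the sources used here, so the 8 members overlapping a gene on the opposite strand are uncertain. The deposited FPKM values differ by at most 1.91e-05 percent from counts over gene length and library total, and were used for levels between genes.

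Counts were analysed in R 4.3.3 with edgeR 4.0.16 (filterByExpr, TMM, quasi-likelihood test, 1 mean per group, all 12 libraries, 8 contrasts, 8 residual degrees of freedom before moderation) and Benjamini-Hochberg adjustment over 15351 genes. A gene was called at an adjusted p under 0.05. The absolute log2 fold change above 1 that the study also required, and DESeq2 1.42.0, were alternatives. The SE is the absolute log2 fold change over the square root of F. CPM values use TMM factors (0.941 to 1.07), and log2 values a prior count of 2. Depth was 14369781 to 19309724 counts. Replicate pairs differed by a chi-square of 23.7 to 103.2 per gene, so none was a repeated library. The scripts were tested on simulated data.

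Members and lists were chosen with earlier results of these data known. Members were described in full if called in a comparison, if they had the smallest p there, if among the 3 highest or lowest in FPKM, or as a regulator. Of the other lists, at most 2 called genes per list and comparison were eligible to be named. The p-values set a difference between groups against the spread between libraries within groups. A planned search for a promoter motif was not run, since no promoter sequence was used here. KRT7 and SERPINA14 were not analysed here.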

Additional observations from a re-analysis of the deposited data

How the results depend on the processing

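Of the values of named genes under the alternatives, 311 kept their side of the threshold, 148 no longer passed, 4 newly passed and none reversed. The counts among the 37 genes varied more. They are given here without the share over all genes, so their changes are not read as particular to the 37. DESeq2 on all 12 libraries called 2 in HF against LF, 9 with NCG, 1 for the interaction, 10 in H + N against L − N and 15 in L + N against L − N, and on the 2 groups alone it called 8 in H + N and 12 in L + N. EdgeR on the 2 groups alone called 0 in H + N and in H − N against L − N. A log2 fold change above 1 left 2 with NCG, 3 in H − N and 2 in L + N. Scaling by total counts alone left 2, 3 and 3 in that order, moved the median of the 37 to −0.23 in L + N and to 0.0761 for the interaction, and shifted the median of all genes by 0.13 and −0.12 there. Leaving out a library gave 0 to 3 calls in HF against LF, 0 to 3 with NCG, 0 to 2 for the interaction, 0 to 8 in H + N, 0 to 7 in H − N and 0 to 9 in L + N against L − N, and interaction medians of 0.15 to 0.31. H + N against H − N and against L + N gave 0 under every alternative run. Same-numbered libraries correlated by −0.322 to 0.283 in their deviations. Differently numbered pairs were not compared, so these values do not decide whether same-numbered libraries share more than a number. The replicate block left 2 calls with NCG, 4 in H + N, 3 in H − N and 5 in L + N. Over all alternatives 302 member calls were below 0 and 6 above. These fits and comparisons share libraries and count the same genes repeatedly, so the calls are not independent of each other. The share of each direction over all genes is not given for them. The calls above 0 were GCLM and PRDX6 in H + N against L − N, and MSRB3, GPX4 and SRXN1 as interaction terms, which are not higher levels in a diet. The spread between libraries within groups, and not the depth, limits the precision. GPX2, with a count of 8 in 1 library, was the exception.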
